A study of Mus musculus with 12 samples.

Results

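The genes described here are p53 (Trp53), 25 of its transcriptional targets and 15 genes of the mitochondrial, or intrinsic, apoptosis pathway, followed through loss of the mitochondrial protein prohibitin (Phb) in mouse male germ cells and a germ cell line. They were chosen by name, 41 of the 39985 gene names in the 12 deposited tables, and each had exactly 1 row in the GC2 table and 1 in the spermatocyte table. RNA sequencing had been run on 4 groups of 3 libraries: GC2 control, GC2 with PHB knockdown, spermatocytes from control mice and spermatocytes from Phb conditional knockout mice. GC2 is a mouse spermatocyte line obtained from ATCC and grown at 37 °C, and the line is known to have been made with SV40 large T antigen and a temperature-sensitive p53. Spermatocytes came from enzyme-digested tubules stained with a Hoechst DNA dye and flow sorted. The labels leave out how the knockdown was made, the Cre driver, the deleted exons, the age of the mice and how many animals made up a library. The replicates are called biological without naming cultures or animals, and the p-values therefore reflect spread among these libraries, which may be technical.

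p53 is a transcription factor that is stabilised by DNA damage and other stress and switches on genes for cell cycle arrest (Cdkn1a), DNA repair (Ddb2, Xpc), stress sensing (Sesn1) and death (Bax, Bbc3, Pmaip1, Fas), while its target Mdm2 marks p53 for destruction. Apoptosis through mitochondria is governed by the Bcl-2 family: Bcl2, Bcl2l1 and Mcl1 guard the outer membrane, Bax and Bak1 open it, and BH3-only proteins such as Bcl2l11, Bid, Bad and Bik tip the balance. Cytochrome c then joins Apaf1 to activate Casp9, Xiap holds caspases back, and Diablo relieves that block. In the testis this pathway removes defective germ cells. Much of p53 control acts on the protein, which these RNA data do not show.

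The DNA letters that p53 binds were looked for in RefSeq start-site windows on GRCm38.p6. These run from 250 bases before to 50 bases after a RefSeq start, which can lie inside the annotated gene. The motif is the p53 consensus decamer: 3 purines, C, 2 letters that are A or T, G and 3 pyrimidines, a pattern that is its own reverse complement and so covers both strands. For 32 of the 41 genes there were 44 windows, of which 11 (25.0%) held the decamer, against 8.36% of all 32851 windows of this length. Those 11 windows belonged to 10 genes: Gadd45a, Bax, Aen, Ei24, Sesn1, Mdm2, Ccng1, Trp53, Polk and Cdkn1a. The Aen windows among the 11 overlap and hold the same decamer, which is thus counted more than once. Of 24 windows (0.0731%) that held a pair of decamers with at most 13 bases between them, 1 was a window of these genes, that of Cdkn1a. In another form, an ungapped pair with the C and G of each decamer kept and 1 other letter allowed to differ, Ccng1 and Cdkn1a had a match, against 0.067% of all windows. With 2 letters allowed the same genes matched (0.326% of all windows), and with 3 letters 8 windows of Aen, Bbc3, Ccng1, Cdkn1a, Sesn1, Tigar and Trp53 did (1.38%). A match is a description of letters and not a binding site. Windows of 4 genes are printed with the decamer in capitals, 5′ to 3′ on the gene's strand: Cdkn1a, Ccng1 and Sesn1, which rose in knockout spermatocytes, and Mdm2, which fell there. The windows are chr17:29090729-29091028 on the plus strand for Cdkn1a, chr11:40755237-40755536 on the minus strand for Ccng1, chr10:41887189-41887488 on the plus strand for Sesn1 and chr10:117710709-117711008 on the minus strand for Mdm2.
Cdkn1a: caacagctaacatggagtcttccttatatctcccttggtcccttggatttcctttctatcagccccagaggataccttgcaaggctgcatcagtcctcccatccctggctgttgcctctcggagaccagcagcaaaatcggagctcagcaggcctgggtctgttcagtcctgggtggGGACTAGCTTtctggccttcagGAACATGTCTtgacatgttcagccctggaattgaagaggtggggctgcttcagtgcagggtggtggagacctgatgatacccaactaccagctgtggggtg
Ccng1: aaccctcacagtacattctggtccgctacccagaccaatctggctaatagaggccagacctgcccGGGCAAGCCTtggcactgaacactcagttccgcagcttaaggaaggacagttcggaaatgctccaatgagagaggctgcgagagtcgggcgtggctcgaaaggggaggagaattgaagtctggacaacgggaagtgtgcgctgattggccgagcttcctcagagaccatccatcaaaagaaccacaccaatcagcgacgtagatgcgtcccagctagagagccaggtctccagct
Sesn1: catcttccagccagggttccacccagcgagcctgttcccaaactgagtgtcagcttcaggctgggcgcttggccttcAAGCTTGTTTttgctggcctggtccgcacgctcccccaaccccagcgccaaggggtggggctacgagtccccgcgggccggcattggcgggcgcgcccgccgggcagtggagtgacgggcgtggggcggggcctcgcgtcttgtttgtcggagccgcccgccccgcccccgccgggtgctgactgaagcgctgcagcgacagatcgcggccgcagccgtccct
Mdm2: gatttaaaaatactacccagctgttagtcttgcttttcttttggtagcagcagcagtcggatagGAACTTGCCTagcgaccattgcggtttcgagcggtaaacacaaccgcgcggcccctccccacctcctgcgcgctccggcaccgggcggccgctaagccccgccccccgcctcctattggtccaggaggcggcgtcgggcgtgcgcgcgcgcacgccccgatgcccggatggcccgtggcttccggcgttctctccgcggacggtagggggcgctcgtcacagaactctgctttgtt
In Cdkn1a the decamers begin at positions -73 and -51 relative to the start. In Ccng1, Sesn1 and Mdm2 the decamer begins at positions -185, -173 and -186. The Sesn1 window belongs to a start inside the gene, which is annotated from 41809935 to 41908424. The Polk window with the decamer also lies inside its gene.

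Values are FPKM, fragment numbers scaled by transcript length and by library size, and are given as mean ± SD over the 3 libraries of a group. Changes are depleted minus control in log2(FPKM + 1), a scale on which low genes appear to change less than they did, and a gene is called at an adjusted p under 0.05 in limma with Benjamini-Hochberg adjustment over all tested rows. Phb itself fell in GC2 from 54.3 ± 2.15 to 20.02 ± 2.31 FPKM and in spermatocytes from 13.3 ± 0.634 to 11.6 ± 0.241 FPKM. These changes were -1.40 and -0.18 on the log2 scale, so Phb RNA was only slightly lower in the libraries labelled knockout. The germ cell markers Ddx4, Dazl, Sycp1 and Sycp3 were at most 0.22 FPKM in any GC2 library, so GC2 lacked these defining germ cell RNAs. In the knockout spermatocyte libraries the summed FPKM of 17 pachytene and diplotene marker rows was 76.01 to 81.35, against 2662 to 2712 in controls, and that of 24 Sertoli cell markers was 5750 to 5944 against 1362 to 1462. The spermatocyte groups therefore differed in cell-type markers beside the labelled knockout. In such bulk samples fewer cells of a type and less RNA per cell cannot be told apart.

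In knockout spermatocytes most of the genes were higher. Of 38 tested, 29 rose and 6 fell, where 40.9% of all 15957 rows rose and 38.5% fell (79.4% called in all). Their median log2 fold change was 0.51 against 0.05 over all rows. Pmaip1, Aen and Tnfrsf10b were not called, and Eda2r, Perp and Bcl2 were under the filter of 1 FPKM in at least 3 of 6 libraries. Bbc3 and Fas passed that filter through the knockout libraries alone, so they had to differ, and their changes are given as values without a test. Without them 27 of 36 rose and 6 fell, with a median of 0.48. Changes of at least 2-fold were found for 8 genes that rose, 7 without Fas (11.6% of all rows) and 2 that fell (21.6%). Knockout and control libraries did not overlap for 36 of the 38, which 81.8% of all rows matched, with 30 higher (42.2%) and 6 lower (39.6%). Bbc3 and Fas, which had to differ, are among the 36 and the 30. In GC2 cells fewer were called: 36 genes were tested, 4 rose (10.7% of all 10791 rows rose) and 3 fell (13.9%), 24.5% of all rows being called, with a median of -0.09 against -0.04 over all rows. The groups did not overlap for 16 of the 36 (44.9% of all rows), with 7 higher (19.6%) and 9 lower (25.3%). Changes of at least 2-fold among them were the falls of Fas and Gadd45a, where 2.21% of all rows fell that far. Bbc3, Phlda3, Eda2r, Bik and Endog were under the filter in GC2. Of all calls 51.6% were higher in spermatocytes and 43.5% in GC2, shares that became 62.0% and 53.6% with quantile normalization.

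**Figure D1:**
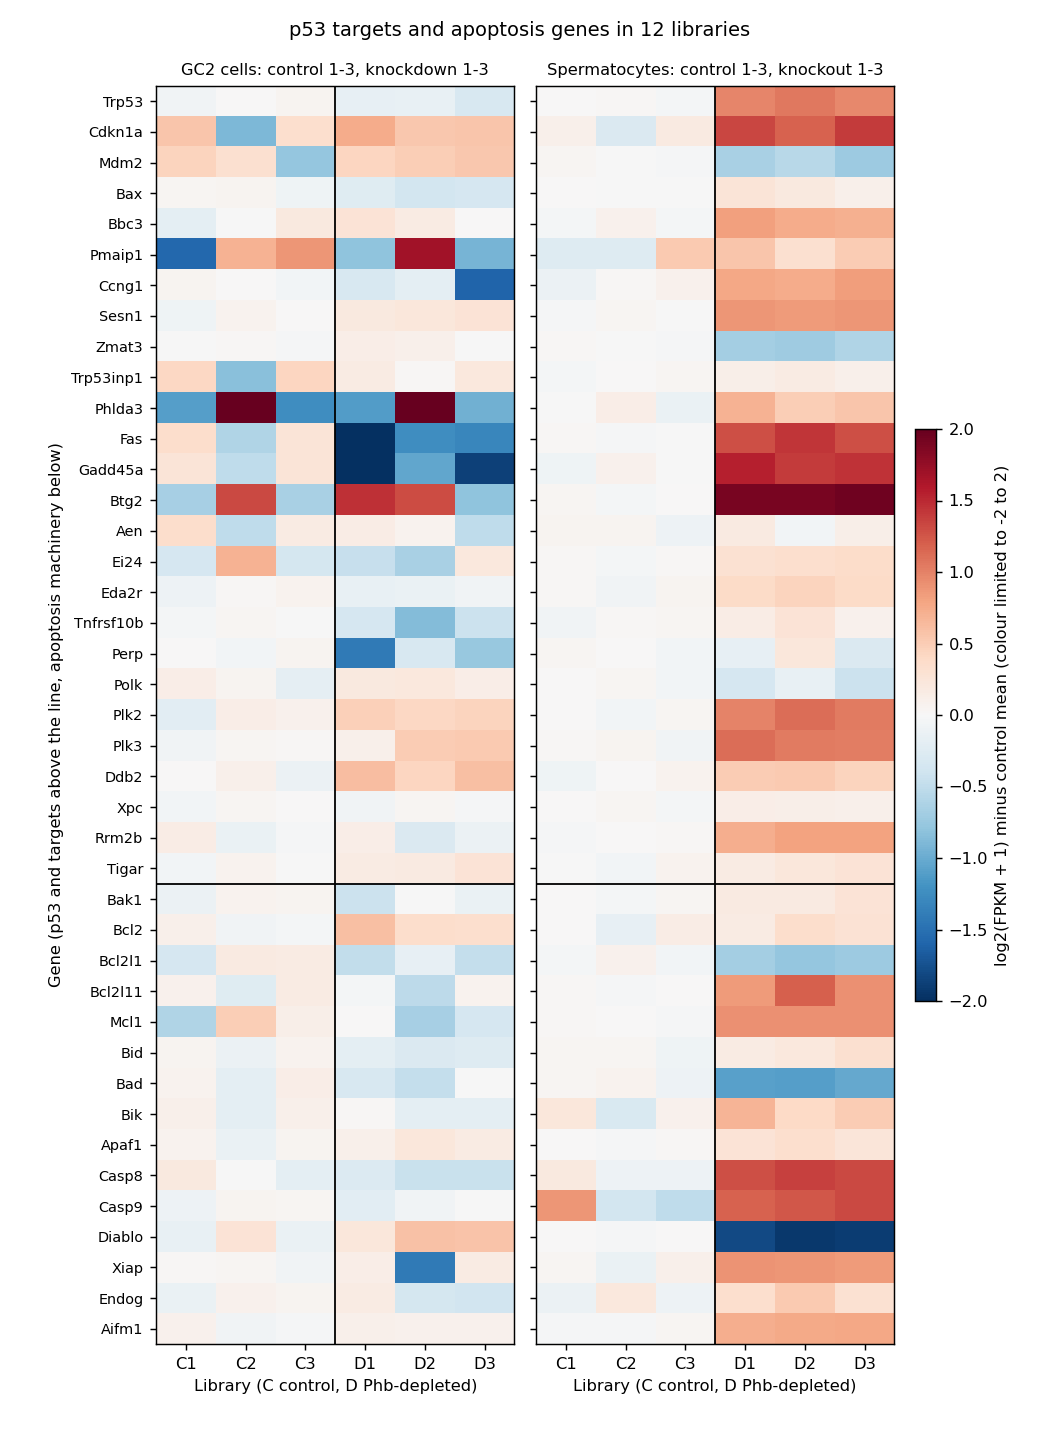
Heat map of the 41 genes (rows) in the 12 libraries (columns), as log2(FPKM + 1) minus the mean of the controls of the same kind of sample, with colour limited to -2 and 2. The left panel holds GC2 and the right panel spermatocytes, C1 to C3 are control and D1 to D3 depleted libraries, and the black vertical lines divide them. In spermatocytes the knockout columns are alike and mostly red, while in GC2 several genes differ between libraries of 1 group.

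Trp53 (ENSMUSG00000059552.13) lies on chromosome 11, 69580359 to 69591873, on the plus strand of GRCm38, the build of all gene positions given here. Its RNA changed differently in GC2 and in spermatocytes. Whether the GC2 values also hold RNA of the temperature-sensitive p53 with which the line was made cannot be told from these data. Spermatocyte controls held 11.39, 11.51 and 10.94 FPKM of Trp53 and knockouts 23.08, 24.55 and 22.92, or 1.00 on the log2 scale (SE 0.039, adjusted p = 1.6e-06). Every knockout library lay above every control. GC2 controls held 42.92, 45.32 and 46.88 FPKM and knockdowns 40.16, 40.29 and 36.02, all below the controls, but the change of -0.21 (SE 0.065) was not called (adjusted p = 0.0721). The tables were made separately, so these levels are not tested against each other. The difference between the 2 changes was tested in 1 fit of all 12 libraries and was 1.21 (SE 0.077, adjusted p = 5.26e-07). In that fit 60.9% of 9666 genes were called.

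Mdm2 (ENSMUSG00000020184.15, chromosome 10, 117688875 to 117710758, minus strand), the ubiquitin ligase that p53 induces and that degrades it, fell in knockout spermatocytes while Trp53 rose. Its control libraries held 23.62, 22.99 and 22.66 FPKM and its knockout libraries 14.44, 15.45 and 13.54, or -0.64 on the log2 scale (SE 0.050, adjusted p = 4.53e-05). The groups did not overlap. In GC2 the controls held 17.35, 15.83 and 6.88 FPKM and the knockdowns 17.04, 18.01 and 18.63, with control 3 far below the other two, and the change of 0.49 (SE 0.34) was not called (adjusted p = 0.358). The changes differed by -1.13 (adjusted p = 0.0214).

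Btg2, Cdkn1a, Gadd45a, Ccng1, Plk2 and Plk3 rose in knockout spermatocytes. Btg2 (ENSMUSG00000020423.6, chromosome 1, 134075170 to 134079120, minus strand), an antiproliferative gene, had the largest rise of the 41: controls held 29.62, 28.02 and 29.10 FPKM and knockouts 110.29, 109.89 and 114.16, or 1.91 on the log2 scale (SE 0.030, adjusted p = 4.21e-08). Cdkn1a, the CDK inhibitor p21, held 1.76, 1.09 and 1.91 FPKM in controls and 5.47, 4.79 and 5.72 in knockouts, a change of 1.30 (SE 0.14, adjusted p = 0.000201). Gadd45a (ENSMUSG00000036390.8, chromosome 6, 67035096 to 67037457, minus strand), which acts in growth arrest after DNA damage, held 3.90, 4.49 and 4.16 FPKM in controls and 14.13, 12.64 and 13.12 in knockouts, a change of 1.46 (SE 0.061, adjusted p = 2.28e-06). No knockout library of these 3 genes reached down to a control. Ccng1, cyclin G1, rose from 7.46 ± 0.619 to 13.5 ± 0.468 FPKM, and the polo-like kinases Plk2 and Plk3 rose by 1.05 and 1.06 on the log2 scale.

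In GC2, Gadd45a moved the other way. Its controls held 20.89, 11.89 and 20.87 FPKM and its knockdowns 2.70, 7.89 and 4.04, or -1.74 on the log2 scale (SE 0.39, adjusted p = 0.0295). The groups did not overlap, but control 2 and knockdown 2 lay closer together than the others. The call was lost without control replicate 1 or 3 or knockdown replicate 1 or 3 (adjusted p 0.066 to 0.0933). The changes of Gadd45a in the 2 kinds of sample differed by 3.20 (SE 0.42, adjusted p = 9.16e-05). Btg2 in GC2 spread within groups, at 1.36, 8.31 and 1.37 FPKM in controls and 9.28, 8.22 and 1.13 in knockdowns, and neither its change (adjusted p = 0.626) nor the difference from spermatocytes (adjusted p = 0.256) was called. Cdkn1a in GC2 was 11.55, 3.57 and 9.81 FPKM in controls and 13.25, 11.35 and 11.47 in knockdowns, with control 2 low and the groups overlapping (adjusted p = 0.333). Its difference from spermatocytes was not called (adjusted p = 0.208) but was without GC2 control replicate 2 (adjusted p = 0.00092).

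Plk2 rose in both kinds of sample. In GC2 it was the most abundant of the 41 genes per length, at 62.81, 80.73 and 77.42 FPKM in controls and 102.05, 97.57 and 99.63 in knockdowns, or 0.44 on the log2 scale (SE 0.10, adjusted p = 0.0324). All knockdowns lay above all controls. The call was lost without control replicate 3 or any 1 knockdown replicate (adjusted p 0.0675 to 0.0919). The rise in spermatocytes, from 6.63 ± 0.273 to 14.8 ± 0.698 FPKM, was larger by 0.61 (adjusted p = 0.00135). Plk3 in GC2 was 2.58 ± 0.136 FPKM in controls and 3.69 ± 0.740 in knockdowns. Its groups did not overlap, but the change was not called (adjusted p = 0.0973). Without knockdown replicate 1 Plk3 was called higher (0.0127).

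**Figure D2:**
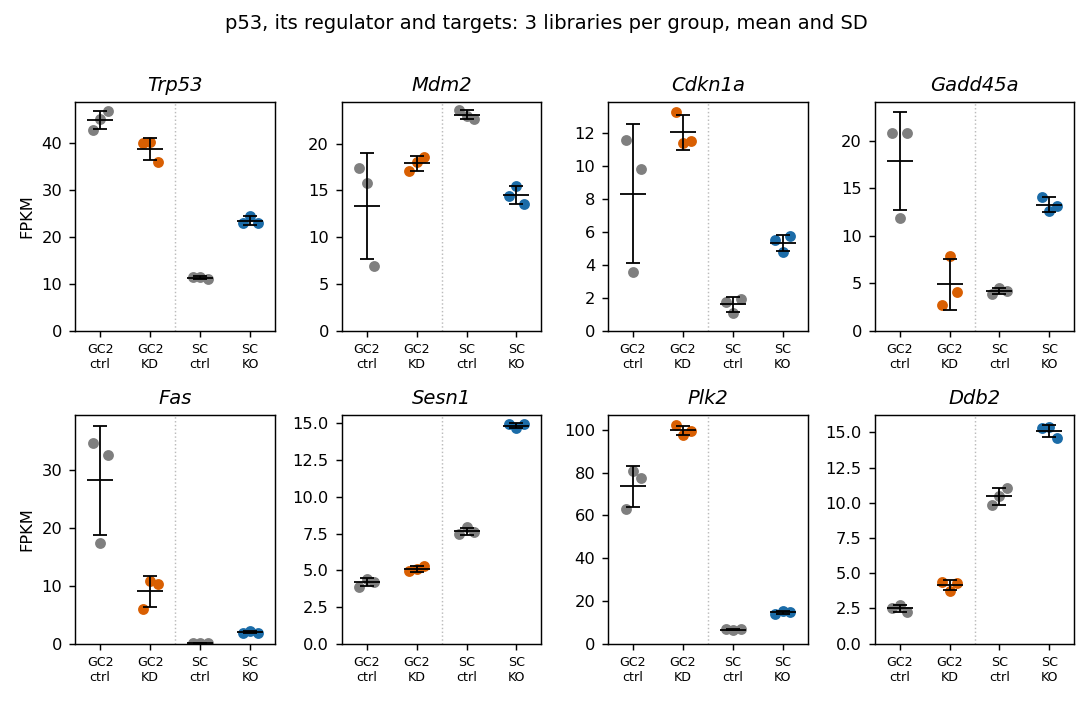
FPKM (vertical axes, each from 0) of Trp53, Mdm2 and 6 targets in GC2 control (ctrl), GC2 knockdown (KD), spermatocyte (SC) control and spermatocyte knockout (KO) libraries. Points are libraries, the long bar is the mean and the whiskers 1 SD, n = 3, and the dotted line divides the separately made tables. Fas and Gadd45a lie lower in knockdown GC2 and higher in knockout spermatocytes, and Mdm2 lies lower in knockout spermatocytes.

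Ddb2 and Sesn1 rose in both comparisons. Ddb2, a damage sensor of nucleotide excision repair, held 2.52, 2.75 and 2.24 FPKM in GC2 controls and 4.38, 3.73 and 4.30 in knockdowns, or 0.55 on the log2 scale (SE 0.087, adjusted p = 0.00981). Of the 7 GC2 calls it alone held without any single library (adjusted p 0.0198 to 0.0414), but it was lost with the replicate block (0.0526). In spermatocytes Ddb2 rose from 10.4 ± 0.608 to 15.1 ± 0.454 FPKM, a change of 0.49, and the changes differed by -0.06 (SE 0.10, adjusted p = 0.633). Sesn1, a sestrin that restrains mTORC1, rose in GC2 from 4.18 ± 0.276 to 5.09 ± 0.177 FPKM (adjusted p = 0.0486), a call lost without any 1 of the 6 libraries (adjusted p 0.0667 to 0.141). In spermatocytes Sesn1 held 7.48, 7.93 and 7.59 FPKM in controls and 14.94, 14.66 and 14.93 in knockouts, a change of 0.87 (adjusted p = 1.55e-06), larger than in GC2 by 0.64 (adjusted p = 2.18e-05).

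Other repair and metabolic targets moved in spermatocytes. Rrm2b, the p53-inducible ribonucleotide reductase subunit, rose from 1.03 ± 0.038 to 2.49 ± 0.092 FPKM, or 0.78 on the log2 scale (adjusted p = 1.26e-05). Tigar, which lowers glycolytic flux, rose by 0.22 and the damage sensor Xpc by 0.12, and the Xpc call was lost without control replicate 1 or 3 or knockout replicate 1 or 2 (adjusted p 0.0644 to 0.085). Polk, a translesion polymerase, fell by 0.30 on the log2 scale (adjusted p = 0.0139). That call was lost without control replicate 2 (adjusted p = 0.0504), with median centring (0.144) and with quantile normalization (0.718). Zmat3, an RNA-binding target, fell from 2.36 ± 0.056 to 1.12 ± 0.083 FPKM (adjusted p = 3.79e-05). In GC2 these 5 genes had adjusted p-values of 0.0642 (Tigar) to 0.837 (Xpc), and that of Tigar became 0.0286 to 0.0319 when libraries were centred on the median, normalized by quantiles or stripped of mitochondrial rows.

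Death genes switched on by p53 did not move alike. Fas (ENSMUSG00000024778.13, chromosome 19, 34290666 to 34327772, plus strand), the receptor for Fas ligand, was near 0 in control spermatocytes at 0.19, 0.16 and 0.17 FPKM and held 1.88, 2.16 and 1.88 in knockouts, or 1.34 on the log2 scale. In GC2 it was abundant and fell: controls held 34.61, 17.42 and 32.60 FPKM and knockdowns 5.99, 10.85 and 10.34, a change of -1.52 (SE 0.34, adjusted p = 0.0291). The GC2 groups did not overlap, and the call was lost without any 1 library other than control replicate 2 (adjusted p 0.0607 to 0.0918). The changes were 2.86 apart on the log2 scale, a value that carries the same limit of the filter in spermatocytes.

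Of the BH3-only targets, Bbc3 (Puma) held 0.75, 0.91 and 0.75 FPKM in control spermatocytes and 2.17, 2.03 and 1.94 in knockouts, or 0.76 on the log2 scale. Pmaip1 (Noxa) did not pass: controls held 2.67, 2.66 and 5.32 FPKM and knockouts 5.43, 4.51 and 5.24, with control 3 among the knockouts (adjusted p = 0.108). Without control replicate 3 Pmaip1 was called higher (adjusted p = 0.000995), and it was also called with median centring (0.0423) and quantile normalization (0.0412). In GC2 the Pmaip1 libraries ranged from 2.97 to 20.61 FPKM in controls and from 5.21 to 36.69 in knockdowns (adjusted p = 0.993). The receptor Tnfrsf10b was 1.30 ± 0.089 and 1.59 ± 0.182 FPKM in spermatocytes (adjusted p = 0.0605), a rise that was called without knockout replicate 3 (0.0431) and in 4 other settings (0.000191 to 0.0472). The nuclease Aen was 6.09 ± 0.456 and 6.5 ± 0.635 FPKM there (adjusted p = 0.394), called with median centring (0.0363) and quantile normalization (0.0446). Tnfrsf10b in GC2 was 3.28 ± 0.112 and 1.97 ± 0.550 FPKM (adjusted p = 0.0539), called lower without knockdown replicate 1 or 2 (0.0348 to 0.0472).

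Phlda3, a repressor of Akt, rose in spermatocytes from 2.46 ± 0.315 to 4.17 ± 0.381 FPKM, the endoplasmic reticulum protein gene Ei24 from 9.39 ± 0.261 to 12.1 ± 0.320, and Trp53inp1, an autophagy and death cofactor, from 9.56 ± 0.280 to 10.5 ± 0.218. The Trp53inp1 call was lost without control replicate 1 or knockout replicate 2 (adjusted p 0.0507 to 0.0514). Eda2r, a TNF receptor family member, was at 0.15 ± 0.051 and 0.51 ± 0.040 FPKM and Perp, a desmosome protein and death effector, at 0.70 ± 0.051 and 0.63 ± 0.312, both untested.

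The gatekeepers of the mitochondrial membrane moved in opposite directions in knockout spermatocytes. Mcl1 (ENSMUSG00000038612.16, chromosome 3, 95658788 to 95663176, plus strand), a short-lived guardian, held 37.99, 37.59 and 36.78 FPKM in controls and 71.79, 71.41 and 71.30 in knockouts, or 0.91 on the log2 scale (SE 0.022, adjusted p = 2.23e-07). Bcl2l1 (ENSMUSG00000007659.18, chromosome 2, 152780668 to 152831728, minus strand), which encodes Bcl-xL, held 17.17, 18.77 and 17.04 FPKM in controls and 10.58, 9.88 and 10.21 in knockouts, a change of -0.73 (SE 0.048, adjusted p = 1.9e-05). Neither gene's groups overlapped. The ratio of Mcl1 to Bcl2l1 FPKM was 2.21, 2.0 and 2.16 in controls and 6.79, 7.23 and 6.98 in knockouts. Bcl2 was under the filter at 0.31 ± 0.140 and 0.57 ± 0.096 FPKM.

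The pore formers changed little there. Bax rose from 4.93 ± 0.031 to 5.75 ± 0.375 FPKM (0.19 on the log2 scale, adjusted p = 0.016) on a row that it shares with Gm45808 and Dhdh, so the value cannot be given to Bax alone. Bak1 rose from 6.56 ± 0.210 to 7.74 ± 0.347 FPKM (0.21, adjusted p = 0.00571). The ratio of Bak1 to Bcl2l1 FPKM was 0.383, 0.338 and 0.397 in controls and 0.712, 0.764 and 0.797 in knockouts. The ratio of Bad to Bcl2l1 FPKM went the other way, from 0.861, 0.814 and 0.783 in controls to 0.59, 0.628 and 0.644 in knockouts. These ratios were chosen after the values were seen and are given without a test.

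In GC2 the shared Bax row held 2.54, 2.58 and 2.28 FPKM in controls and 1.93, 1.70 and 1.74 in knockdowns, or -0.31 on the log2 scale (SE 0.068, adjusted p = 0.0265). All knockdowns lay below all controls, but the call was lost without control replicate 1 or 2 or knockdown replicate 2 or 3 (adjusted p 0.0766 to 0.0861). Bcl2 held 2.42, 2.02 and 2.11 FPKM in controls and 3.80, 3.07 and 3.0 in knockdowns, a rise of 0.43 (SE 0.099, adjusted p = 0.032) that was lost without any 1 of the 6 libraries (adjusted p 0.0507 to 0.0986). Mcl1 was 6.67, 15.42 and 11.59 FPKM in controls and 10.71, 6.36 and 8.21 in knockdowns and was not called (adjusted p = 0.515), nor were Bcl2l1 (0.193) and Bak1 (0.335). The spermatocyte change minus the GC2 change was 0.50 for the Bax row (adjusted p = 0.000429), 1.25 for Mcl1 (0.0106) and 0.40 for Bak1 (0.0303), each with a positive value in spermatocytes and a negative one in GC2. The Bak1 difference was lost without GC2 control replicate 2 or 3, spermatocyte control replicate 1 or 2 or knockout replicate 3 (adjusted p 0.0548 to 0.0679). For Bcl2l1 the difference was not called (adjusted p = 0.138).

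The BH3-only genes of this group were also divided in spermatocytes. Bcl2l11, which encodes the potent activator Bim, held 1.74, 1.67 and 1.71 FPKM in controls and 3.88, 5.22 and 4.08 in knockouts, or 0.99 on the log2 scale (SE 0.098, adjusted p = 0.000142). Bad (ENSMUSG00000024959.14, chromosome 19, 6941861 to 6951899, plus strand), which binds and neutralises Bcl-xL, held 14.79, 15.28 and 13.35 FPKM in controls and 6.24, 6.2 and 6.58 in knockouts, a change of -1.07 (SE 0.057, adjusted p = 6.55e-06). Groups did not overlap for either gene. Bid, the link from death receptors to mitochondria, rose from 5.34 ± 0.295 to 6.44 ± 0.433 FPKM, and Bik, an endoplasmic reticulum BH3-only protein, rose from 2.65 ± 0.656 to 4.24 ± 0.521 (adjusted p = 0.0175). The Bik call was lost without knockout replicate 1 (adjusted p = 0.0562). In GC2 none of Bcl2l11, Bid and Bad was called (adjusted p 0.6, 0.0626 and 0.279), though Bid was called lower without control replicate 2 (0.0424). The differences between the 2 kinds of sample were called for all 3, at 1.15, 0.47 and -0.81.

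**Figure D3:**
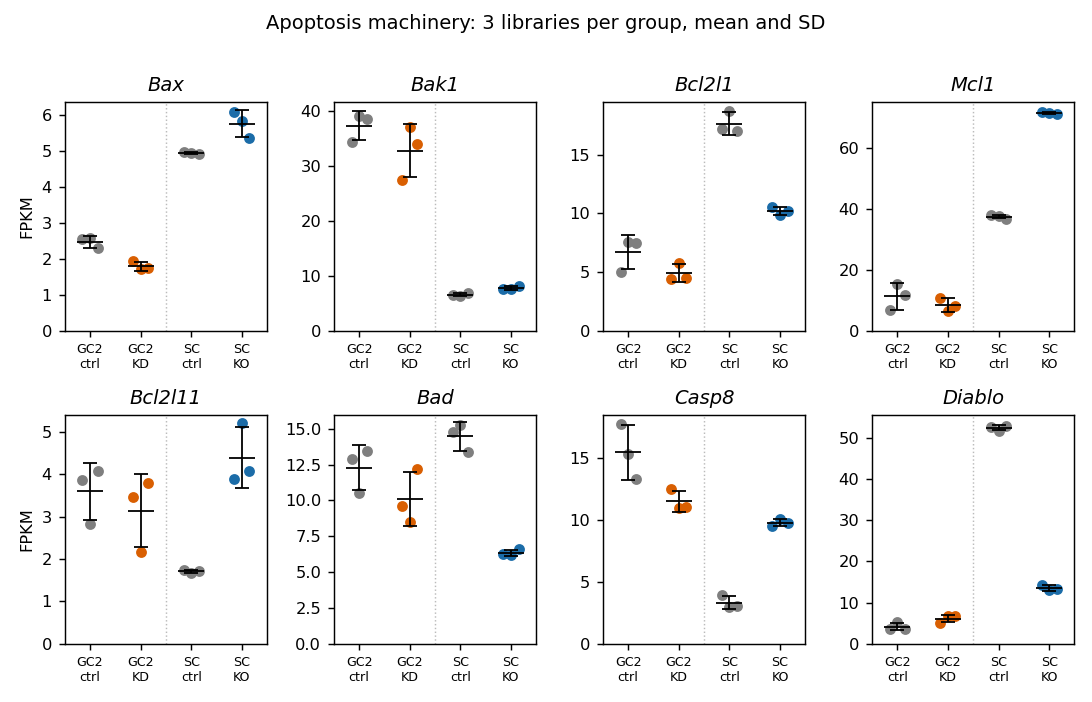
FPKM (vertical axes, each from 0) of 8 apoptosis genes in GC2 control (ctrl) and knockdown (KD) and spermatocyte (SC) control and knockout (KO) libraries. Points are libraries, the long bar is the mean and the whiskers 1 SD, n = 3, and the dotted line divides the separately made tables. In spermatocytes Mcl1, Bcl2l11 and Casp8 lie higher and Bcl2l1, Bad and the Diablo row lower in every knockout library than in any control. The Bax row is shared with Gm45808 and Dhdh, and the spermatocyte Diablo row with Gm49027.

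In knockout spermatocytes the initiator caspases Casp8 and Casp9 and the scaffold Apaf1 rose. Casp8 (ENSMUSG00000026029.14, chromosome 1, 58795374 to 58847503, plus strand), the initiator caspase of death receptors, held 3.92, 3.0 and 3.02 FPKM in controls and 9.47, 10.09 and 9.75 in knockouts, or 1.33 on the log2 scale (SE 0.090, adjusted p = 2.18e-05). Casp9, the initiator at the apoptosome, held 4.32, 1.23 and 1.03 FPKM in controls and 5.54, 5.82 and 6.24 in knockouts, so that control 1 lay nearer to the knockouts than to the other controls. Its change of 1.25 (SE 0.37, adjusted p = 0.0207) was not called without control replicate 2 or 3 or knockout replicate 2 or 3 (adjusted p 0.0539 to 0.0703). Apaf1, the apoptosome scaffold, rose from 1.91 ± 0.051 to 2.53 ± 0.111 FPKM (adjusted p = 0.00187). In GC2 Casp8 was 15.4 ± 2.19 FPKM in controls and 11.5 ± 0.858 in knockdowns (adjusted p = 0.0638), called lower without control replicate 3 (0.0435), and Casp9 (0.451) and Apaf1 (0.215) were not called.

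The row shared by Diablo (ENSMUSG00000029433.16, chromosome 5, 123509765 to 123524176, minus strand), the Xiap antagonist, and Gm49027 had the largest fall of the 41. It held 52.80, 51.84 and 52.85 FPKM in control spermatocytes and 14.39, 13.05 and 13.42 in knockouts, or -1.87 on the log2 scale (SE 0.039, adjusted p = 1.2e-07). The annotation places exons of Gm49027 over those of Diablo on the same strand, so the fall cannot be given to Diablo alone. In GC2 the row named Diablo alone held 3.64, 5.19 and 3.69 FPKM in controls and 5.03, 6.68 and 6.65 in knockdowns, overlapping (adjusted p = 0.0966). The changes differed by -2.34 (adjusted p = 1.51e-06), between rows that hold different genes.

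Xiap, the caspase inhibitor, rose in spermatocytes from 3.65, 3.11 and 3.84 FPKM to 7.43, 7.36 and 7.12, or 0.88 on the log2 scale (SE 0.069, adjusted p = 4.56e-05). In GC2 it held 7.67, 7.83 and 7.19 FPKM in controls and 8.37, 2.2 and 8.58 in knockdowns, with knockdown 2 alone low (adjusted p = 0.596). The difference between both changes, 1.25 (adjusted p = 0.0474), was lost without any 1 of 9 libraries (adjusted p 0.0684 to 0.0936) and held without each GC2 knockdown library. Without knockdown 2 it was 0.73 (adjusted p = 0.000178). It was also lost with no filter (0.0553) and with a pseudocount of 0.1 (0.0512). Of the mitochondrial nucleases and flavoproteins, Aifm1 rose from 10.6 ± 0.312 to 18.5 ± 0.301 FPKM (adjusted p = 2.73e-06) and Endog from 1.83 ± 0.378 to 2.69 ± 0.299 (adjusted p = 0.0194). The Endog call was lost without control replicate 1 or 3 or knockout replicate 2 (adjusted p 0.0606 to 0.0674). Xiap, Aifm1 and Eda2r are the 3 genes of the 41 on the X chromosome, where 440 of 648 tested rows (67.9%) rose in knockout spermatocytes. The part of that in the rises of Xiap and Aifm1 was not tested.

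**Figure D4:**
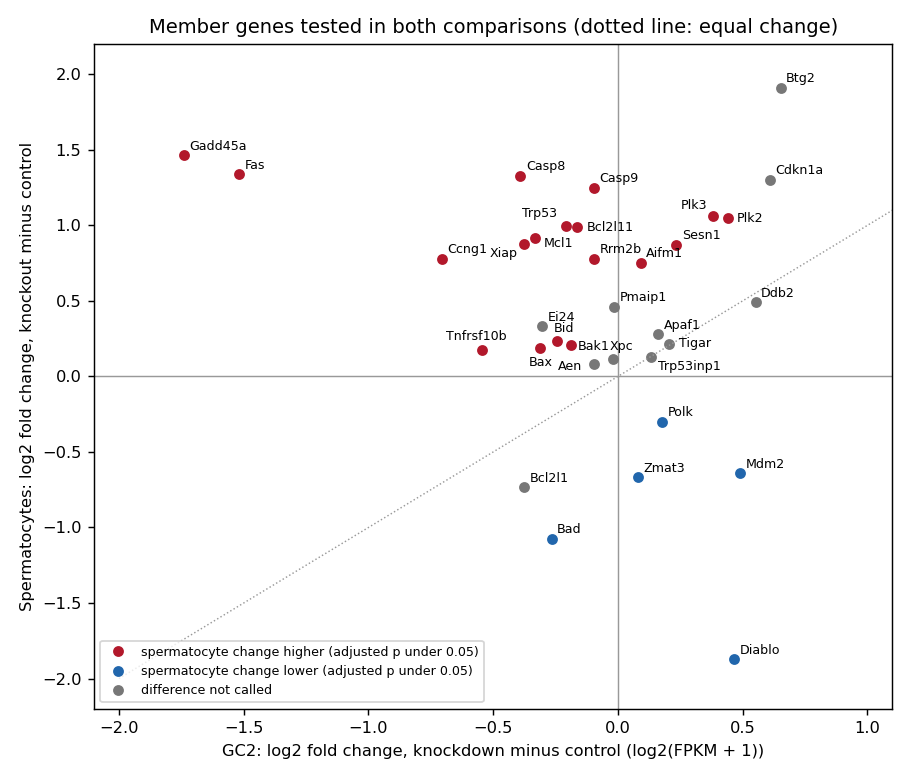
Log2 fold changes on the log2(FPKM + 1) scale in GC2 (horizontal axis) and spermatocytes (vertical axis) for the 34 genes tested in both, 1 point per gene, with the dotted line at equal change. Red and blue points are genes whose 2 changes differ at an adjusted p under 0.05, grey points are not called. Gadd45a and Fas lie at the upper left, higher in spermatocytes and lower in GC2, and Diablo, Mdm2 and Zmat3 lie at the lower right.

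The change in GC2 was set against that in spermatocytes for the 34 genes tested in both, and it differed for 23, with the spermatocyte change higher for 18 (38.0% of all genes) and lower for 5 (22.9%), namely Mdm2, Zmat3, Polk, Bad and Diablo. Fas, which passed the spermatocyte filter through the knockout libraries alone, is among the 23 and the 18. The comparisons share no library, but the fit lends GC2 and spermatocyte libraries 1 common spread per gene. That spread was not alike. In GC2 the highest FPKM + 1 was at least 2 times the lowest within a group for 11 of 36 tested genes (30.6%), against 14.8% of all rows, and in spermatocytes for 1 of 38, Casp9, against 3.27%.

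The genes that spread in GC2 did not share 1 odd library. Control 2 was the low one for Cdkn1a and Trp53inp1 and the high one for Ei24, while control 3 was low for Mdm2 and knockdown 3 for Ccng1, at 12.03 FPKM beside 30.83 and 33.71. Knockdown 1 was low for Perp, at 2.01 FPKM beside 5.43 and 3.77. All knockdowns of both genes lay below the controls, which held 40.06, 38.64 and 37.23 FPKM of Ccng1 and 7.08, 6.71 and 7.33 of Perp. Neither fall was called (adjusted p = 0.261 and 0.0916), but that of Perp was without knockdown replicate 2 (0.0416). Phlda3, which was not tested, held 0.55, 15.69 and 0.40 FPKM in controls and 0.52, 24.03 and 0.70 in knockdowns, high in replicate 2 of both groups. Pmaip1 was highest in knockdown 2 at 36.69 FPKM but in controls highest in replicate 3. The limit of 2 was chosen after the values were seen.

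**Figure D5:**
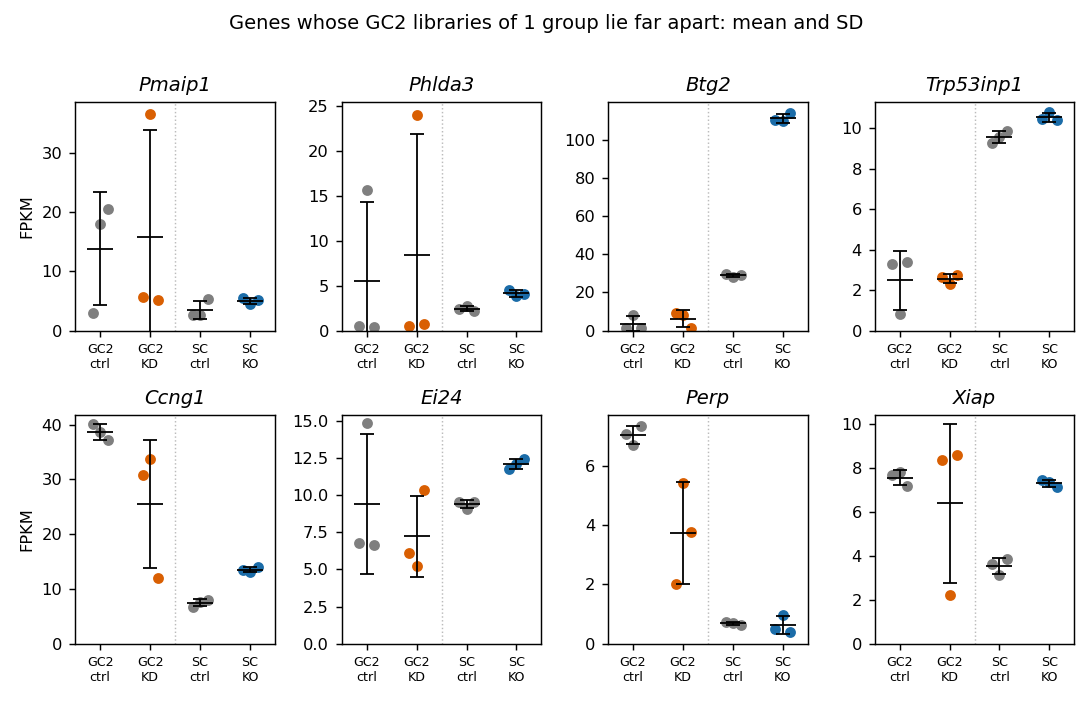
FPKM (vertical axes, each from 0) of 8 genes whose GC2 libraries of 1 group lay far apart, with spermatocyte libraries beside them. Points are libraries, the long bar is the mean and the whiskers 1 SD (those below 0 are not drawn), n = 3, for GC2 control (ctrl), GC2 knockdown (KD), spermatocyte (SC) control and spermatocyte knockout (KO). Phlda3 is high in replicate 2 of both GC2 groups, and Xiap is low in knockdown 2 alone.

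Further genes of the pathway gave the setting. Of 38 other p53 targets tested in spermatocytes, 25 rose and 6 fell, with a median of 0.64 (40.9% and 38.5% of all rows rose and fell). They included Thbs1, an inhibitor of vessel growth, from 9.56 ± 0.167 to 53.8 ± 0.569 FPKM. Igfbp3, which binds insulin-like growth factors, went from 8.35 ± 0.180 to 40.9 ± 0.645 FPKM. The row that Ephx1, an epoxide hydrolase, shares with Gm36961 went from 1.96 ± 0.198 to 29.0 ± 1.09 FPKM. That rise cannot be given to Ephx1 alone. In GC2 the same list had 3 of 38 higher and 11 lower (10.7% and 13.9% of all rows). Cpt1c, among the 11, passed the GC2 filter through the controls alone and had to fall. Thbs1 fell there from 29.2 ± 0.637 to 10.8 ± 0.675 FPKM and the sestrin Sesn2 from 11.7 ± 0.689 to 2.63 ± 0.168, while the receptor Epha2 rose from 44.4 ± 1.43 to 96.4 ± 3.66.

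Of 26 regulators and relatives of p53 tested in spermatocytes, 7 rose and 11 fell, where 40.9% of all rows rose and 38.5% fell. Ppm1d, a phosphatase that is itself a p53 target and switches the response off, fell from 29.4 ± 0.303 to 12.6 ± 0.535 FPKM. The row that Atr, a kinase of the DNA damage response, shares with Gm24004 fell from 21.4 ± 0.259 to 10.6 ± 0.280 FPKM. Ppp1r13l, an inhibitor of p53, fell from 13.04 ± 0.597 to 3.12 ± 0.401 FPKM and Trp53bp2, which aids p53 at death genes, rose from 8.59 ± 0.176 to 14.4 ± 0.936. In GC2, 3 of 23 rose and 2 fell (10.7% and 13.9% of all rows), and Trp53bp2 rose from 9.17 ± 0.349 to 19.2 ± 1.11 FPKM.

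Of 14 other Bcl-2 family genes in spermatocytes 9 rose and 5 fell, where 40.9% of all rows rose and 38.5% fell. Among them Bcl2l14 fell from 7.32 ± 0.180 to 0.09 ± 0.023 FPKM, and it had to fall because it passed the filter through the controls alone. Bnip3l, a mitophagy receptor, rose from 28.6 ± 0.811 to 54.7 ± 0.728 FPKM. In GC2 1 of 10 was called (24.5% of all rows), Bnip3, another mitophagy receptor, which fell from 10.7 ± 0.586 to 6.97 ± 0.180 FPKM. Of 22 caspases, apoptosome genes and inhibitors 14 rose and 5 fell in spermatocytes (40.9% and 38.5% of all rows). The somatic cytochrome c gene Cycs rose from 35.85, 36.58 and 36.10 FPKM to 115.82, 118.05 and 109.94, while the testis form Cyct fell from 99.66, 98.58 and 94.68 to 13.98, 14.10 and 12.10. Cyct exceeded Cycs in every control library and Cycs exceeded Cyct in every knockout library. Of 12 death receptor genes 9 rose and 1 fell in spermatocytes (40.9% and 38.5% of all rows), with Tnfrsf1a, a TNF receptor, going from 9.92 ± 0.159 to 33.5 ± 0.233 FPKM and Cflar, the Casp8 inhibitor, from 1.96 ± 0.115 to 5.88 ± 0.053. Tnfrsf21, among the 9, passed the filter through the knockout libraries alone and had to rise. In GC2 1 of 11 rose and 3 fell (10.7% and 13.9% of all rows). Casp1, among the 3, passed the filter through the controls alone and had to fall.

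Markers of other testis cells moved with these groups in spermatocytes, where 40.9% of all rows rose and 38.5% fell. Sertoli cell markers rose for 22 of 24, led in level by Clu at 296 ± 46.8 and 1270 ± 92.7 FPKM. Leydig cell markers rose for 9 of 9 tested, with a summed FPKM of 70.25 to 72.45 in controls and 443.8 to 469.6 in knockouts, and macrophage and immune markers for 11 of 12, from 23.01 to 29.29 up to 47.74 to 51.3. Some of these, such as Hsd3b6 of the Leydig and H2-Aa of the immune list, passed the filter through the knockout libraries alone and had to rise. Peritubular and endothelial markers rose for 9 of 11 and fell for 1 (summed 45.79 to 47.2 and 66.91 to 68.85). The fall was that of the smooth muscle gene Actg2, from 11.3 ± 0.146 to 1.48 ± 0.494 FPKM. Markers of pachytene and diplotene cells fell for 16 of 16, led by Ldhc at 1428 ± 10.5 and 5.41 ± 0.630 FPKM, and those of round spermatids for 16 of 16. In all knockout libraries 9 of 17 rows of the first list and 11 of 16 of the second were under 1 FPKM. Those of them that were tested passed the filter through the controls alone and had to fall. Of the germ cell identity markers 9 of 10 fell, their summed FPKM going from 1133 to 1163 down to 563 to 568.1. In spermatocytes no marker row of the Sertoli or Leydig lists was at 0 in all libraries of a group. The part of these shifts in the changes of the p53 and apoptosis genes was not tested. Spermatogonia markers rose for 2 of 20 and fell for 10, led in level by Dmrtb1, a gene of the switch from mitosis to meiosis, at 238 ± 13.4 and 6.32 ± 0.438 FPKM. Leptotene and zygotene markers rose for 3 of 15 and fell for 10, led in level by the axis protein gene Sycp3 at 160 ± 4.60 and 124 ± 1.73 FPKM, with Spo11, which cuts DNA to start recombination, at 17.4 ± 0.165 and 2.57 ± 0.200.

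In GC2 most marker rows were low, 14 of 21 Sertoli rows and 7 of 8 Leydig rows being under 1 FPKM in all controls, but some markers moved with the knockdown. Over all rows 10.7% rose and 13.9% fell. Of 4 markers of the myoid list tested, Acta2, smooth muscle actin and its most abundant, fell from 93.8 ± 4.53 to 16.9 ± 0.716 FPKM. The row that Pdgfra shares with Mir7025 fell from 10.05 ± 1.06 to 4.49 ± 0.668 FPKM, and Flt1 rose from 2.66 ± 0.247 to 5.03 ± 0.621. Of 7 Sertoli markers tested Clu rose from 10.1 ± 0.298 to 22.2 ± 1.23 FPKM, Kitl and Wt1 also rose, and Gdnf and the row that Trf shares with Srprb and Gm20425 fell. Of 3 markers tested in each of the next lists, Cd74 of the immune list fell, Uchl1 of the spermatogonia list rose from 31.6 ± 2.64 to 53.9 ± 6.51 FPKM, and in the leptotene list Ythdc2 rose and Stag3 fell. Cd74 and Stag3 passed the filter through the controls alone and had to fall. The 1 Leydig marker tested and the 2 of pachytene and diplotene were not called, and no round spermatid marker reached the filter. The row of the germ cell gene Dnd1, which it shares with Hars, was called higher (adjusted p = 0.0363). The part of these markers in the GC2 changes was not tested.

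Genes with the p53 decamer in a window moved in both directions. Of the 10 genes with it in a window 7 rose, 2 fell (Mdm2 and Polk) and 1 was not called in spermatocytes (Aen), and of the 22 with windows but no match 17 rose, 3 fell and 2 were not tested, where 40.9% of all rows rose and 38.5% fell. Bbc3, which had to rise because it passed the filter through the knockout libraries alone, is among the 17. Among the 4 genes printed, Cdkn1a rose by 1.30 on the log2 scale, Sesn1 by 0.87 and Ccng1 by 0.78, while Mdm2 fell by 0.64.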

How the data were processed

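The authors deposited a table of FPKM values for each of the 12 libraries. Per the submitters' processing notes, tools were HISAT2 2.1.0 and DESeq, with GRCm38 and mm10 listed as builds; what each served for, the quantifier and the annotation are not stated there. FPKM does not correct for composition. Depth is not stated, and an estimate from the steps between low values gave no clear answer. Unnamed rows (1200 in GC2, 164 in spermatocytes) held 0.7498% to 3.9337% of the FPKM total and were left out.

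Each table was tested with limma 3.58.1 (R 4.3.3, trend) on log2(FPKM + 1) over rows with at least 1 FPKM in 3 of 6 libraries, two-sided. Both changes were compared in 1 fit of 12 libraries. Summaries and figures used matplotlib 3.10.9, numpy 2.4.6 and pandas 2.3.3 in Python 3.11.15. Row positions and overlaps are from GENCODE M21. On simulated data with 200 changed rows, 43.06%, 63.93% and 88.06% of 1.5-, 2- and 4-fold changes were recovered in GC2 (10791 rows; 7.857% of calls were unchanged rows) and 76.06%, 82.46% and 98.61% in spermatocytes (15957 rows; 6.011%). These shares were not tested with as many changed rows as were called in the data, 2649 in GC2 and 12672 in spermatocytes. The changed rows were drawn only from rows with a control level of at least 5 FPKM, so the shares do not cover lower genes. Bax, Sesn1, Ddb2 and Bcl2, which were called in GC2, lay below that level in controls. The shares were also not tested for the 41 genes. The members and lists were chosen with earlier results of these data known. All 41 genes are described, though not each with its values in all 4 groups. The rule for the other lists allowed up to 4 called genes per comparison in order of adjusted p, plus the most abundant marker. Not all of these are named, and Wt1 was named after its value was seen. The promoter motif was searched in 3 forms, all reported, and these forms, the 2-fold counts, the counts without Fas and Bbc3, the within-group spread, the gene ratios, the X chromosome count and the genes drawn in figures were chosen after values were seen. Alternatives were other pseudocounts, filters, scalings, a replicate block, a fit without trend and leaving out each library. A result on 1 gene is not reported here.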

Additional observations from a re-analysis of the deposited data

Results flagged for a closer look

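For 23 genes the change in spermatocytes and the change in GC2 cells differed in the fit of all 12 libraries (limma, adjusted p under 0.05), where 60.9% of all genes tested in both did so. Values are the spermatocyte log2 fold change minus that in GC2.

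Among p53 and its targets the difference was 3.20 for Gadd45a, 2.86 for Fas, 1.48 for Ccng1, 1.21 for Trp53, 0.87 for Rrm2b, 0.71 for Tnfrsf10b, 0.68 for Plk3, 0.64 for Sesn1, 0.61 for Plk2 and 0.50 for the Bax row. It was -1.13 for Mdm2, -0.75 for Zmat3 and -0.48 for Polk. Among the apoptosis genes it was 1.72 for Casp8, 1.34 for Casp9, 1.25 for Xiap, 1.25 for Mcl1, 1.15 for Bcl2l11, 0.66 for Aifm1, 0.47 for Bid and 0.40 for Bak1, and it was -2.34 for the Diablo row and -0.81 for Bad. Groups of 3 libraries are too small for a test of single outlying libraries. Fas passed the filter in spermatocytes through the knockout libraries alone. The call was lost for Polk with quantile normalization (adjusted p = 0.119) and for Xiap with no filter (0.0553) and with a pseudocount of 0.1 (0.0512).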

How the results depend on the processing

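The 4 GC2 genes called higher became 1 with a mean of at least 5 FPKM, 1 with no filter and 1 with the replicate block, and 1 to 2 when 1 library was left out. The count called lower, 3 with all libraries, was 1 with the block, and that 1 was Casp8 and none of the 3. It was 0 to 3 without 1 library, 0 without control replicate 1 or knockdown replicate 3, and the 3 without knockdown replicate 2 included Tnfrsf10b and Perp, which were not among the calls with all libraries. In spermatocytes 29 higher became 19 with a mean of at least 5 FPKM, where fewer genes were tested, and 23 to 28 without 1 library, and it was 32 with median centring and with quantile normalization. The 6 lower became 4 with a mean of at least 5 FPKM and 5 to 6 without 1 library. The 23 differences ranged from 20 to 26 over the alternatives. For the others the cause was not tested.

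The replicate numbers do not pair the libraries by the rule used: deviations of libraries with the same number correlated at 0.1235, 0.07799 and 0.06074 in GC2 and at 0.007444, -0.05394 and 0.007376 in spermatocytes. In GC2 each library correlated best with its own number, a hint from the data and not the design. With the block Bax (adjusted p = 0.0662), Sesn1 (0.0843), Fas (0.0926), Gadd45a (0.106), Plk2 (0.0818) and Ddb2 (0.0526) were not called in GC2, Casp8 was called lower (0.0486), and in spermatocytes Xpc was not called (0.0635). The rest of the calls in both kinds of sample were the same with the block.

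Signs of small GC2 changes turned with median centring, removal of mitochondrial rows and quantile normalization: Pmaip1 to 0.0283, 0.0542 and 0.0383 and Xpc to 0.0236, 0.0417 and 0.0219. So did the difference for Trp53inp1 (0.112, 0.006 and 0.0597) and, with median centring and quantile normalization, for Ddb2 (0.056 and 0.0121). When 1 library was left out, GC2 changes that turned sign ranged from -0.863 to 0.438 for Pmaip1, -0.288 to 0.346 for Trp53inp1, -0.351 to 0.11 for Aen, -0.56 to 0.0445 for Ei24, -0.0541 to 0.00791 for Xpc, -0.208 to 0.0057 for Rrm2b, -0.288 to 0.0191 for Bcl2l11 and -0.644 to 0.147 for Xiap. Differences that turned ranged from -0.219 to 0.415 for Trp53inp1, -0.0302 to 0.432 for Aen and -0.0208 to 0.047 for Tigar. None of these was called with all libraries, but without GC2 control replicate 2 the Trp53inp1 difference of 0.415 was (adjusted p = 0.00167). No spermatocyte change turned sign under the alternatives run.

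Scaling moved all rows. The median change in spermatocytes went from 0.0473 to 0.208 with median centring and 0.281 with quantile normalization, and the share of calls that were higher from 51.6% to 59.2% and 62.0%. In GC2 that share went from 43.5% to 52.7%, 53.6% and, without mitochondrial rows, 57.5%. Depth is unknown, so no counting error can be given.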
